A study of Mus musculus with 24 samples.

Results

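The genes described here are the protein-coding genes at the proximal end of mouse chromosome 17 that Ts65Dn mice carry in an extra copy. They were chosen by position, as genes that start proximal to the segment's end on chromosome 17 in GRCm38 (GENCODE M21), with Tiam2 and Synj2 left out by name. Earlier results of these data were known when this rule was set. The first, Scaf8, starts at base 3114972 and the last, Gm17728, at base 9422060. The rule gave 45 of the 55414 gene identifiers in the count matrix. Of these, 34 passed the filter on low counts and were tested, among 19967 tested genes in all.

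RNA was measured in 24 libraries, each made from about 500 neurons cut out of the medial septum and the vertical diagonal band of 1 male mouse of about 6 months. Immunostaining of choline acetyltransferase, which makes acetylcholine, guided the capture. The supplemented groups were 8 Ts65Dn and 4 disomic (2N) mice whose dams were fed chow holding 5.0 g/kg of choline chloride until weaning. The control-diet groups were 6 Ts65Dn and 6 2N mice whose dams were fed chow holding 1.1 g/kg. All mice came from Ts65Dn females mated with C57Bl/6J Eicher × C3H/HeSnJ F1 males, so 2N and Ts65Dn mice had trisomic dams alike, and all ate the control chow after weaning. Ts65Dn mice also carry an extra copy of a distal segment of chromosome 16, so every Ts65Dn library is trisomic for both segments at once. No label names the litter, so the p-values treat littermates as independent.

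The Ts65Dn strain is widely used as a model of Down syndrome because the chromosome 16 segment holds counterparts of many genes of human chromosome 21. The chromosome 17 segment is carried along on the same small marker chromosome, and its genes lie elsewhere in the human genome. An extra copy of a gene raises its RNA in proportion unless the cell compensates, so 3 copies in place of a pair would give a 1.5-fold level, or 0.58 on the log2 scale. The segment holds genes with unlike duties, among them a subunit of a chromatin remodelling complex, a kinase of the ERK pathway, a phosphodiesterase and several local gene duplicates.

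The libraries held 4688258 to 13443438 counts (median 10010353). Chat, the gene of the stained enzyme, was under 1 CPM (counts scaled to a library's total with TMM factors) in 6 of 24 libraries. These were control-diet Ts65Dn 3, 5 and 6, control-diet 2N 5, supplemented Ts65Dn 7 and supplemented 2N 3. The 9 cholinergic markers summed to 3.14, 53.1 and 133 CPM (lowest, median, highest) in control-diet Ts65Dn and to 92.4, 141 and 181 CPM in control-diet 2N. They summed to 113, 185 and 290 CPM in supplemented Ts65Dn and to 158, 209 and 407 CPM in supplemented 2N. The 7 markers of glutamatergic forebrain neurons summed to 295, 987 and 3557 CPM in control-diet Ts65Dn and 160, 231 and 849 CPM in control-diet 2N, and to 99.6, 222 and 617 CPM in supplemented Ts65Dn and 99.5, 143 and 286 CPM in supplemented 2N. The part of either list in the values of the segment was not tested. The fewest genes were detected in control-diet Ts65Dn 3 (13102) and supplemented Ts65Dn 7 (13141), and 4 libraries held at least 80 Xist counts in mice described as male. The design text states 6 mice per group, whereas the labels give 8 and 4 on the supplemented diet.

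Several members are near-identical copies of another gene of the segment, which limits what short reads can tell about each. Dynlt1a, Dynlt1b, Dynlt1c and Dynlt1f each encode a light chain of cytoplasmic dynein, the motor that carries cargo along microtubules towards the cell body. Their coding sequences are 342 bases long, and those of Dynlt1a, Dynlt1c and Dynlt1f are the same, while Dynlt1b carries the single change C21A, counted from 1 at the start of the coding sequence. The first 50 coding bases are shown from GENCODE M21 (GRCm38), because they hold this only difference, in capitals. Each stretch spans an intron, and the coordinates include it. Dynlt1a lies on the minus strand at chr17:6314936-6317400, Dynlt1b on the plus strand at chr17:6430212-6431902, Dynlt1c on the plus strand at chr17:6601810-6603509 and Dynlt1f on the minus strand at chr17:6653330-6655800.
Dynlt1a: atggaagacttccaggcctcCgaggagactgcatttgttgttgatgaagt
Dynlt1b: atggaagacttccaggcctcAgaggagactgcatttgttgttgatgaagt
Dynlt1c: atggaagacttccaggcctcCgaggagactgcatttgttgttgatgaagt
Dynlt1f: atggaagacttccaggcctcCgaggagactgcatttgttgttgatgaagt
Rnaset2a and Rnaset2b, which encode an acid ribonuclease, share an identical coding sequence of 780 bases. Of all 50-base windows of the annotated transcripts, 88.6% of those of Dynlt1f, 84.4% of Dynlt1c, 83.2% of Dynlt1b and 63.0% of Dynlt1a also occur in another gene. The share is 78.9% for Rnaset2a, 57.2% for Rnaset2b, 69.6% for Tagap1, 47.6% for Tagap, 54.4% for Rsph3a and 62.4% for Rsph3b. It is 0 for Arid1b and Pde10a, 18.2% for Tulp4, 19.4% for Rps6ka2 and 29.0% for Tmem181a.

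The question put to the segment is whether its RNA follows its copy number in these neurons on each diet. The counts of all 45 members, summed without any filter and given as CPM with TMM factors, were higher in every Ts65Dn library than in any 2N library on the same diet. On the control diet the sum was 1640 ± 56.1 CPM in Ts65Dn (SD, n = 6; 1561 to 1716) and 1278 ± 162 CPM in 2N (SD, n = 6; 1036 to 1482), a ratio of 1.28. On the supplemented diet it was 1584 ± 113 CPM in Ts65Dn (SD, n = 8; 1439 to 1754) and 1053 ± 126 CPM in 2N (SD, n = 4; 871 to 1158), a ratio of 1.51. The sum was added after single members had been seen and is a description with no test. In such bulk samples, fewer cells of a type and less RNA per cell cannot be told apart.

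The ratio depended on how libraries were scaled, and on TPM, the authors' length-scaled share of transcripts, it lay below 1. In CPM of the plain total, without TMM factors, the ratio was 1.29 (control diet) and 1.25 (supplemented diet), and the genotypes overlapped on both. In summed TPM the members stood at 626 ± 194 in Ts65Dn and 673 ± 69.2 in 2N on the control diet (SD, n = 6 each), and at 482 ± 191 in Ts65Dn (n = 8) and 560 ± 87.4 in 2N (n = 4) on the supplemented diet, ratios of 0.93 and 0.86. The rest of chromosome 17, which is disomic in both genotypes, had TPM ratios of 0.85 and 0.65. The 50 genes with the highest TPM took 62.3% ± 4.65 of all TPM in Ts65Dn and 56.5% ± 2.24 in 2N on the control diet, and 65.1% ± 6.03 in Ts65Dn and 57.8% ± 4.46 in 2N on the supplemented diet. Set against the rest of chromosome 17 within each library, summed TPM gave ratios of 1.07 and 1.31 and summed CPM gave 1.21 and 1.44. The genotypes overlapped in each of these except summed CPM on the supplemented diet.

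A few members make up most of the sum. Tulp4 took 31.5% of it on average and Arid1b 15.9%, and the 5 members with the most counts took 68.7%. Without Tulp4 the sum was 1191 ± 94 CPM in Ts65Dn and 832 ± 119 CPM in 2N on the control diet, a ratio of 1.43, and 1075 ± 125 CPM in Ts65Dn and 726 ± 98.4 CPM in 2N on the supplemented diet, a ratio of 1.48. Without the 5 leading members the ratios were 1.34 and 1.64, and on the control diet the genotypes then overlapped (431 to 683 CPM in Ts65Dn, 309 to 544 CPM in 2N). Leaving out members by name (the Dynlt1, Rnaset2, Rsph3 and Tagap copies, Tcp10a and Tmem181a) gave 1.30 and 1.45. The gene models Gm1604a, Gm49673 and Gm49721, which share 100%, 92.5% and 88.5% of their windows with other genes, were kept in these sums. Within the animals whose ID begins with 17, the control-diet ratio was 1.33 (4 Ts65Dn and 4 2N libraries). Within those that begin with 16, the supplemented ratio was 1.48 (2 and 2 libraries). The meaning of the ID prefix is not stated.

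**Figure D1:**
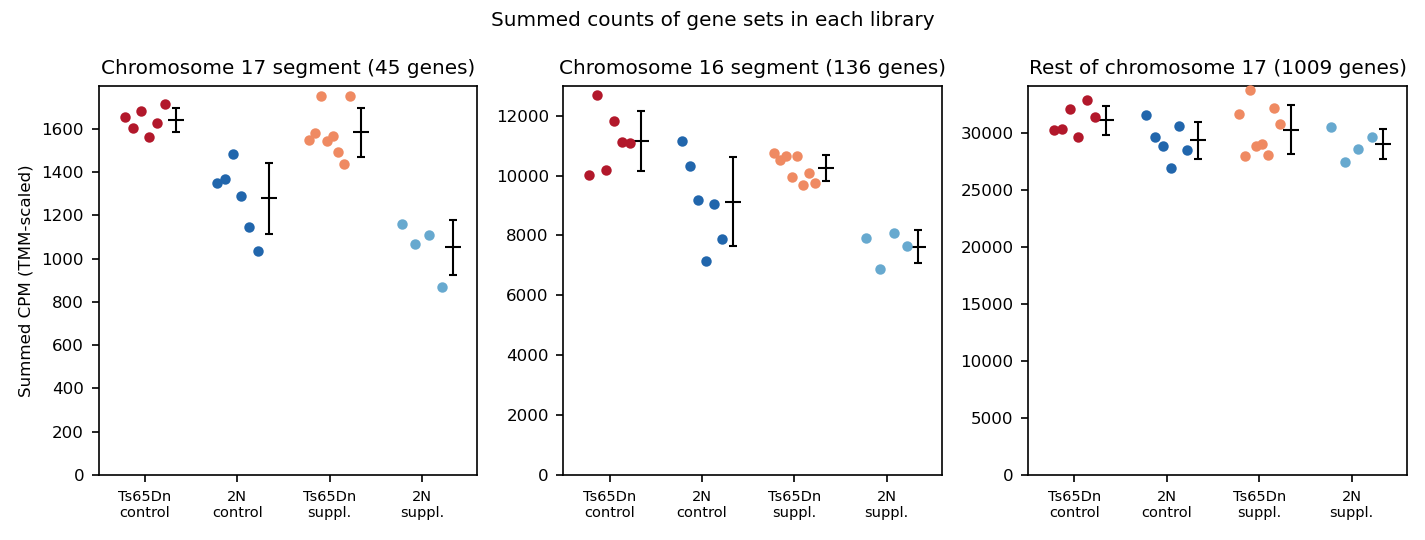
Summed CPM (TMM-scaled) of the 45 genes of the chromosome 17 segment, the 136 genes of the chromosome 16 segment and the 1009 other protein-coding genes of chromosome 17, with 1 point per library by group and the mean ± SD beside each group. The lowest Ts65Dn library of the chromosome 17 segment is at 1439 and the highest 2N library on the same diet at 1158; the rest of chromosome 17 overlaps between genotypes on both diets.

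The same sums were taken for the other triplicated segment and for the disomic remainder of the chromosome. The 136 chromosome 16 genes summed to 11154 ± 1005 CPM in Ts65Dn and 9120 ± 1485 CPM in 2N on the control diet, a ratio of 1.22 with overlap. On the supplemented diet they summed to 10257 ± 435 CPM in Ts65Dn and 7626 ± 539 CPM in 2N, a ratio of 1.34 without overlap. The rest of chromosome 17 had ratios of 1.06 and 1.04, with overlap on both diets.

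The sums also bear on the unequal group sizes. Supplemented Ts65Dn 2 and 5 stand among the 2N supplemented columns of the deposited matrix, although their labels name them Ts65Dn. Their chromosome 17 sums were 1583 and 1565 CPM, against 871 to 1158 CPM in the 4 supplemented 2N libraries. Their chromosome 16 sums were 10519 and 10649 CPM, against 6868 to 8092 CPM in those 2N libraries. Control-diet 2N libraries reached 11153 CPM in the chromosome 16 sum, above both, and 1482 CPM in the chromosome 17 sum, below both. Without supplemented Ts65Dn 2 and 5 the chromosome 17 ratio on the supplemented diet was 1.51.

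Gene by gene most members had a positive log2 fold change, but their genotypes overlapped on both diets, with the exception of Fndc1 on the supplemented diet. On the control diet 24 of the 34 tested members had a positive log2 fold change, with a median of 0.40, where the median of all 19967 tested genes was −0.02. On the supplemented diet 23 of 34 were positive, with a median of 0.56, where all tested genes had 0.09. The 34 count near-identical copies as separate members. Of the 22 with under 50% of their windows shared, 17 (control diet, median 0.48) and 15 (supplemented diet, median 0.60) were positive. The chromosome 16 segment had medians of 0.39 and 0.59 over 78 tested genes, and the rest of chromosome 17 had 0.02 and 0.12 over 658. On log2(TPM + 1) the medians of the members were 0.04 (control diet) and −0.20 (supplemented diet), and those of all genes −0.28 and −0.40, so the members lay 0.32 and 0.20 above all genes on that scale. The mean log2 level of the 34 tested members in each library, in which each member weighs the same, gave a smaller contrast than the sum. Relative to each member's average over the groups it was 0.18 ± 0.65 in Ts65Dn and 0.03 ± 0.44 in 2N on the control diet (SD, n = 6 each), a difference of 0.15, and 2 of 6 Ts65Dn libraries lay above every 2N library. With supplementation it was 0.08 ± 0.49 in Ts65Dn (n = 8) and −0.29 ± 0.22 in 2N (n = 4), a difference of 0.37, and 5 of 8 lay above every 2N library. The genotypes overlapped on both diets. The same level over all tested genes differed by −0.27 (control diet) and −0.02 (supplemented diet). Taken relative to all tested genes in each library, the level of the segment differed by 0.42 and 0.39, still with overlap. Of the Ts65Dn libraries, 4 of 6 and 6 of 8 then lay above every 2N library. On the control diet 2 members, and on the supplemented diet 1, were at 0 throughout one group. Holding them at a floor of 3 counts over the group left the medians at 0.40 and 0.56. They lay at the ends of the list (−6.58 and −4.53 on the control diet, 5.97 on the supplemented diet). The median could move only if the floor carried one of them across it, so its staying says nothing about the other members.

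On either diet alone, no member passed edgeR's quasi-likelihood test, while DESeq2 called 1 on the control and 4 on the supplemented diet. With the control diet, edgeR's quasi-likelihood test called 0 of 34 members at an adjusted p under 0.05, where it called 0.336% of all tested genes. At an unadjusted p under 0.05, 5 members were higher in Ts65Dn (Arid1b, Ezr, Pde10a, Rps6ka2 and Fndc1) and 2 lower (Rnaset2a and Gm17728), where the shares of all genes were 5.36% and 5.55%. DESeq2 called 1 member there, Arid1b, and 2.28% of the genes it tested. On the supplemented diet edgeR called 0 of 34, where it called 0.18% of all genes; 9 members were higher at an unadjusted p under 0.05 and 0 lower, where the shares of all genes were 6.99% and 2.49%. DESeq2 called 4 members, Rps6ka2, Tulp4, Tmem181a and Sft2d1, and 2.6% of its genes. Over the mean of both diets edgeR called 1 member, Arid1b, where it called 0.982% of all genes, with 9 members higher and 2 lower at an unadjusted p under 0.05 (7.85% and 5.04% of all genes), and DESeq2 called 5 (Arid1b, Rps6ka2, Tmem181a, Ezr and Sft2d1) and 4.38% of its genes. Without supplemented Ts65Dn 2 and 5, edgeR called 5 members over both diets, where it called 2.25% of all genes. Of these, Arid1b, Ezr, Rps6ka2 and Tmem181a were higher in Ts65Dn and Rnaset2a was lower. The libraries left out were the only Ts65Dn ones with an Rnaset2a count.

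The width of the intervals shows what these libraries can resolve. On the control diet the 95% interval of the log2 fold change held both 0 and 0.58 for 26 of the 34 tested members, held 0.58 but not 0 for 5, held 0 but not 0.58 for 1, Tulp4, and held neither for Rnaset2a and Gm17728, which had no count in any control-diet Ts65Dn library. On the supplemented diet the same counts were 24, 8 and 1, and the interval of Sft2d1 lay above both; the member that held 0 but not 0.58 was Pde10a. The interval had a median width of 3.89 (control diet) and 4.27 (supplemented diet), on the log2 scale, so an unchanged level could not be told from a 1.5-fold level for most members at this depth and spread.

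**Figure D2:**
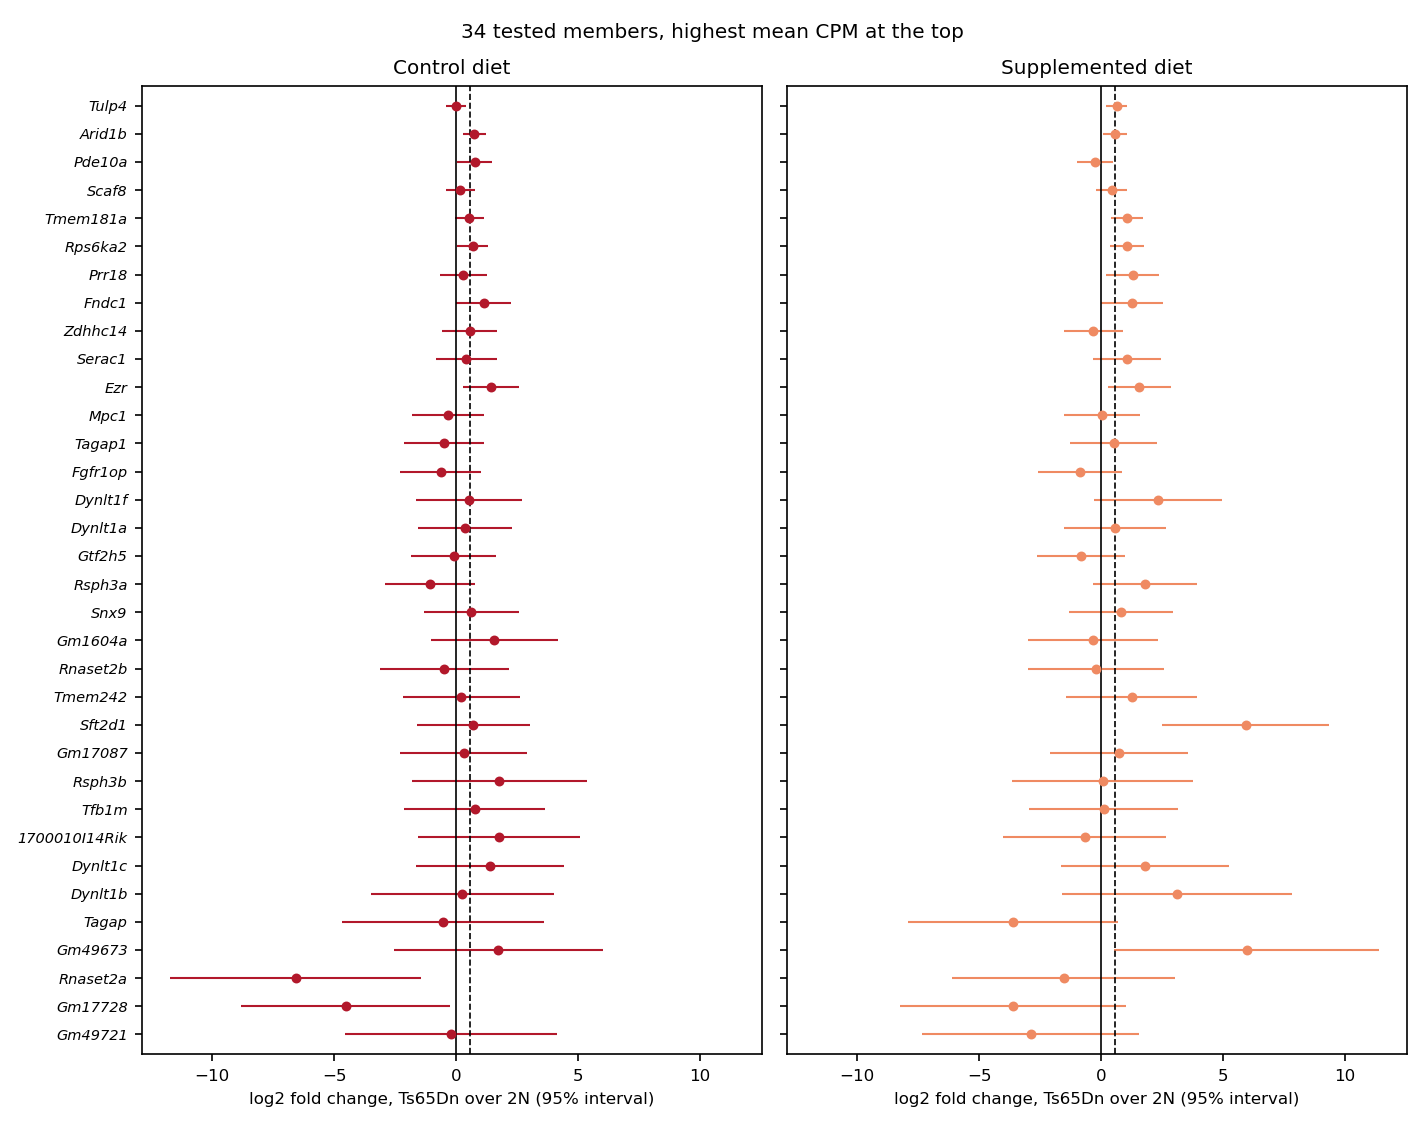
The log2 fold change of Ts65Dn over 2N with its 95% interval for the 34 tested members, the ones with the highest mean CPM at the top, on the control diet (left) and the supplemented diet (right). The solid line marks 0 and the dashed line 0.58, the 1.5-fold level; on the control diet the interval of Tulp4 runs from −0.40 to 0.41 and that of Arid1b from 0.28 to 1.21.

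Among the genes of chromatin and transcription, Arid1b rose in Ts65Dn over both diets in edgeR and DESeq2, and Tulp4 passed in DESeq2 alone, on the supplemented diet. Arid1b encodes a DNA-binding subunit of the BAF chromatin remodelling complex, and loss of 1 copy of the human gene causes a developmental syndrome. It lies at chr17:4994332-5347656 on GRCm38 (ENSMUSG00000069729). On the control diet it had 195, 296 and 388 CPM (lowest, median, highest) in Ts65Dn, against 131, 170 and 215 CPM in 2N. Supplemented Ts65Dn libraries had 196, 264 and 300 CPM, against 254, 171, 122 and 144 CPM in the 4 2N libraries. The genotypes overlapped on both diets, but every Ts65Dn library lay above the 2N mean of its diet (6 of 6 and 8 of 8). The log2 fold change was 0.74 ± 0.23 on the control diet (SE, adjusted p = 0.187), 0.57 ± 0.25 on the supplemented diet (adjusted p = 0.444) and 0.65 ± 0.17 over both, a 1.57-fold level (adjusted p = 0.0422, edgeR's quasi-likelihood test, Benjamini-Hochberg method). That call was lost in 14 of the 24 fits that left out 1 library, with adjusted p between 0.0218 and 0.134 and log2 fold changes between 0.59 and 0.77. The libraries whose absence ended it were control-diet Ts65Dn 1, 3 and 6, control-diet 2N 2, 4, 5 and 6, supplemented Ts65Dn 3, 4, 6 and 8 and supplemented 2N 2, 3 and 4. It was also lost without both libraries with few detected genes (0.63, adjusted p = 0.0605), without the 4 libraries with Xist counts (0.67, adjusted p = 0.126) and on log2(TPM + 1) with limma (0.20, adjusted p = 0.744).

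Tulp4, a tubby-like protein and the member with the highest TPM (145 on average, against 37.9 for Arid1b and 43.9 for Pde10a), had 411, 434 and 517 CPM in control-diet Ts65Dn, against 309, 459 and 559 CPM in control-diet 2N. The groups lay on top of each other, and the log2 fold change was 0.01 ± 0.20 (SE, adjusted p = 0.996). In supplemented Ts65Dn it had 267, 536 and 634 CPM, against 365, 388, 291 and 263 CPM in 2N, and 7 of 8 Ts65Dn libraries lay above every 2N library. The log2 fold change there was 0.64 ± 0.22, a 1.56-fold level, which did not pass in edgeR (adjusted p = 0.349) and passed in DESeq2 (adjusted p = 0.0105). The difference between the diets was 0.63 ± 0.29 and did not pass either (unadjusted p = 0.0379, adjusted p = 0.564).

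Scaf8, which binds the tail of RNA polymerase II, had 85.5, 121 and 163 CPM in control-diet Ts65Dn, against 57, 96.5 and 168 CPM in 2N. Supplemented Ts65Dn libraries had 68.9, 119 and 184 CPM, against 106, 87.9, 92.6 and 70.4 CPM in 2N. The groups overlapped on both diets (log2 fold changes of 0.18 ± 0.29 and 0.44 ± 0.31, SE), with 0 of 6 and 5 of 8 Ts65Dn libraries above every 2N library. Gtf2h5, the small subunit of the repair and transcription factor TFIIH, had log2 fold changes of −0.10 ± 0.86 (control diet) and −0.81 ± 0.89 (supplemented diet), and Tfb1m, which methylates mitochondrial ribosomal RNA and overlaps Tiam2 on the opposite strand, of 0.76 ± 1.43 and 0.11 ± 1.52.

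**Figure D3:**
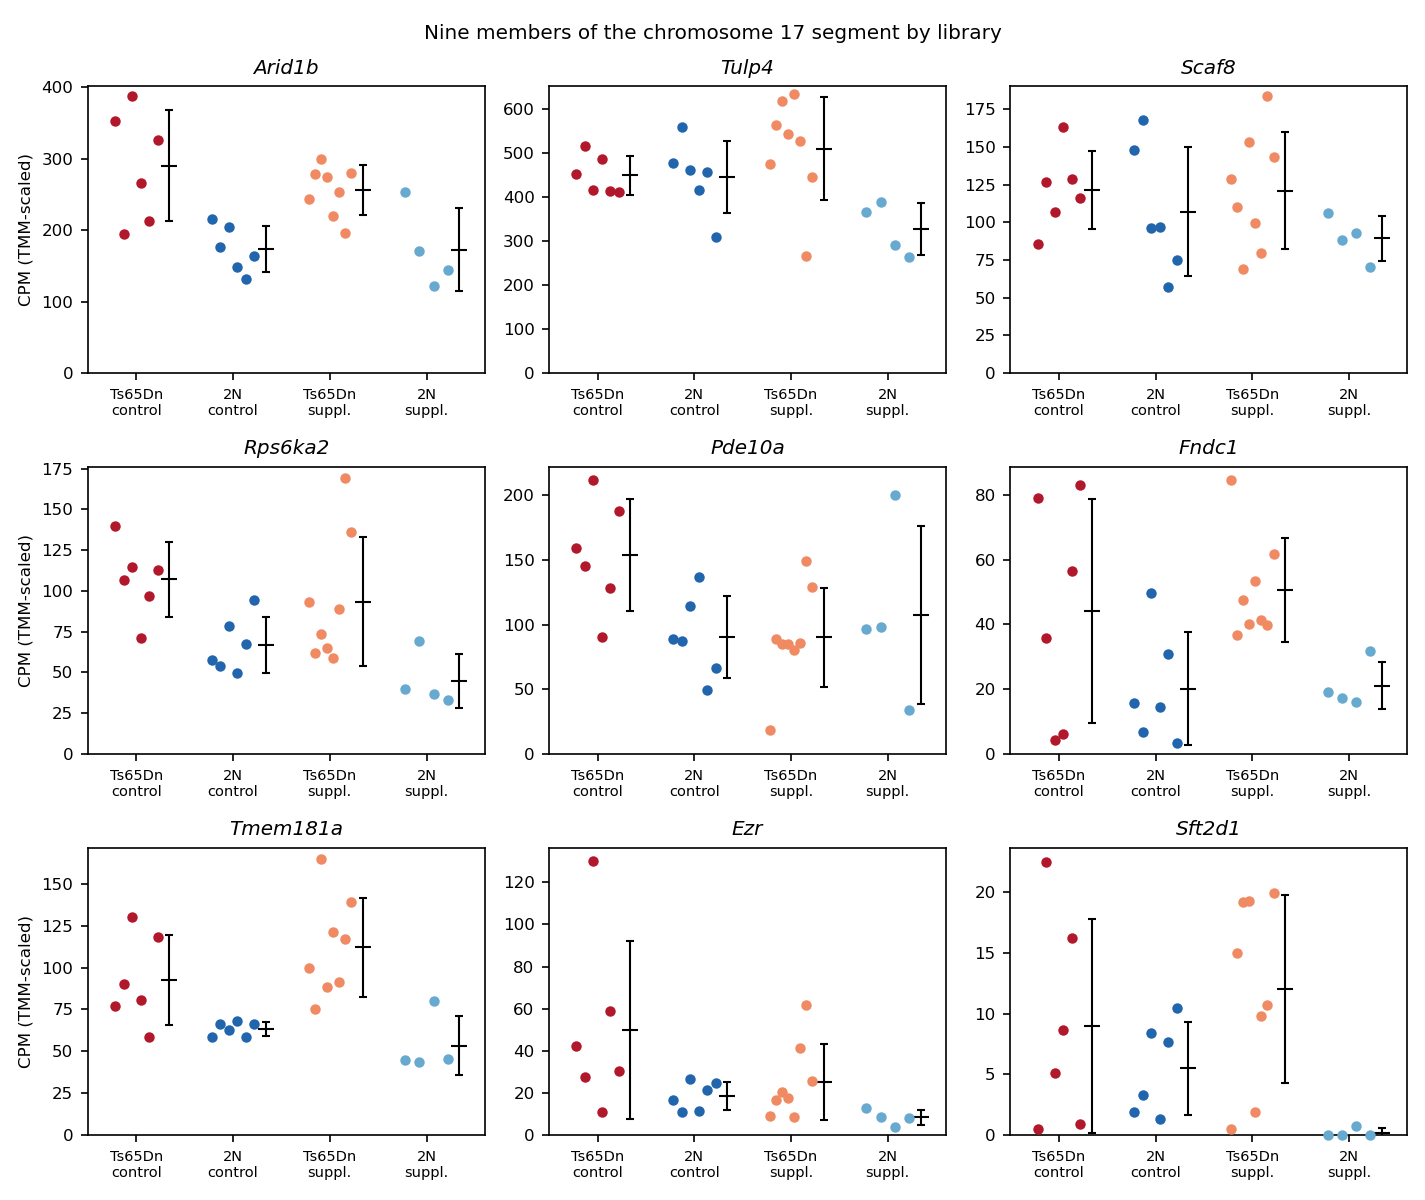
CPM (TMM-scaled) of 9 members, with 1 point per library in the 4 groups and the mean ± SD beside each group. Fndc1 separates the genotypes on the supplemented diet (36.6 to 84.5 CPM in Ts65Dn, 16.1 to 31.7 CPM in 2N), while Tulp4 overlaps on the control diet (411 to 517 CPM in Ts65Dn, 309 to 559 CPM in 2N).

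Of the signalling genes, Rps6ka2 leaned the same way on both diets and Pde10a did not. Rps6ka2 encodes a ribosomal S6 kinase that ERK activates. It had 70.9, 110 and 140 CPM in control-diet Ts65Dn, against 49.5, 62.6 and 94.7 CPM in 2N, and 5 of 6 Ts65Dn libraries lay above every 2N library. In supplemented Ts65Dn it had 58.9, 81.4 and 169 CPM, against 40.1, 69.2, 37.0 and 33.2 CPM in 2N, and 5 of 8 lay above every 2N library. Its log2 fold change was 0.68 ± 0.31 (SE, adjusted p = 0.397) and 1.06 ± 0.35 (adjusted p = 0.306), and 0.87 ± 0.23 over both diets, which missed the threshold in edgeR (adjusted p = 0.0532) and passed in DESeq2 (adjusted p = 0.000993).

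Pde10a breaks down cyclic AMP and cyclic GMP and is best known from the projection neurons of the striatum, which borders the captured area. It had 90.2, 152 and 212 CPM in control-diet Ts65Dn, against 49.2, 88.1 and 137 CPM in 2N, with 4 of 6 Ts65Dn libraries above every 2N library. Supplemented Ts65Dn libraries had 18.6, 85.3 and 149 CPM, against 96.6, 98.4, 200 and 33.8 CPM in 2N, with full overlap. The log2 fold change was 0.76 ± 0.36 on the control diet (SE, adjusted p = 0.404) and −0.25 ± 0.37 on the supplemented diet (adjusted p = 0.986), and the difference between the diets was −1.01 ± 0.51 (unadjusted p = 0.0557, adjusted p = 0.612). Without supplemented 2N 3, the library with 200 CPM, the supplemented value was 0.24. The 9 markers of striatal projection neurons summed to 89, 186 and 406 CPM in control-diet Ts65Dn and 204, 265 and 333 CPM in control-diet 2N. They summed to 108, 153 and 296 CPM in supplemented Ts65Dn and 192, 317 and 428 CPM in supplemented 2N. Of these markers Gpr6 was at 0 in every control-diet library. The part of the striatal markers in the Pde10a values was not tested.

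Fndc1, which encodes a protein with fibronectin type III domains, was the single tested member whose genotypes did not overlap on a diet. In supplemented Ts65Dn it had 36.6, 44.5 and 84.5 CPM, against 19.1, 17.3, 16.1 and 31.7 CPM in 2N, and 0.195% of all tested genes separated that way. On the control diet it had 4.34, 46.2 and 82.9 CPM in Ts65Dn, against 3.52, 15 and 49.8 CPM in 2N, and 0 members separated in that direction, where 0.265% of all genes did. Its log2 fold change was 1.13 ± 0.56 and 1.26 ± 0.62 (SE, adjusted p = 0.453 and 0.521), and 1.20 ± 0.42 over both diets (adjusted p = 0.17). Tagap1 and Tagap, GTPase-activating proteins of which Tagap is known from T cells, share many windows. Tagap1 alone had 0, 24.2 and 42.8 CPM in control-diet Ts65Dn, against 17.8, 34.1 and 49.3 CPM in 2N, and 1.97, 24.7 and 36.0 CPM in supplemented Ts65Dn, against 0, 11.8 and 31.7 CPM in 2N. Summed, the pair had 26.6 ± 15.4 CPM in Ts65Dn and 38 ± 10.9 CPM in 2N on the control diet (SD, n = 6 each), and 20 ± 14.4 CPM in Ts65Dn (n = 8) and 16.7 ± 13 CPM in 2N (n = 4) on the supplemented diet. Neither difference passed (adjusted p = 0.919 and 0.995).

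Genes of membranes, vesicles and the cytoskeleton included 3 that missed the threshold narrowly over both diets. Tmem181a, a membrane protein, had 58.3, 85.4 and 130 CPM in control-diet Ts65Dn, against 58.3, 64.5 and 68.1 CPM in 2N, with 5 of 6 Ts65Dn libraries above every 2N library. Supplemented Ts65Dn libraries had 75.3, 108 and 165 CPM, against 44.7, 43.5, 80 and 45.4 CPM in 2N, with 7 of 8 above every 2N library. The log2 fold change was 0.54 ± 0.29, 1.07 ± 0.32 and, over both diets, 0.81 ± 0.22 (SE, adjusted p = 0.52, 0.234 and 0.0505). DESeq2 called it on the supplemented diet and over both (adjusted p = 0.000453 and 3.79e-05).

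Ezr encodes ezrin, which ties the cell membrane to actin and in the brain is known from the fine processes of astrocytes. It had 10.8, 36.3 and 130 CPM in control-diet Ts65Dn, against 10.9, 19.1 and 26.6 CPM in 2N, and 5 of 6 Ts65Dn libraries lay above every 2N library. In supplemented Ts65Dn it had 8.39, 19 and 61.6 CPM, against 13, 8.54, 4.04 and 8.04 CPM in 2N. The highest value on each diet was that of the library with few detected genes, control-diet Ts65Dn 3 (130 CPM) and supplemented Ts65Dn 7 (61.6 CPM). Its log2 fold change was 1.43 ± 0.57, 1.57 ± 0.64 and, over both diets, 1.5 ± 0.43 (SE, adjusted p = 0.278, 0.426 and 0.0718), and DESeq2 called it over both diets (adjusted p = 0.00282). Without control-diet Ts65Dn 3 the control-diet value was 0.86. The 8 astrocyte markers summed to 1659, 1957 and 2121 CPM in control-diet Ts65Dn and 1825, 2049 and 2474 CPM in control-diet 2N, and to 1235, 1506 and 2093 CPM in supplemented Ts65Dn and 1570, 1641 and 1789 CPM in supplemented 2N. Their part in the Ezr values was not tested.

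Sft2d1, related to a yeast protein of Golgi vesicle traffic, was near 0 in supplemented 2N. It had 0.474, 12.9 and 19.9 CPM in supplemented Ts65Dn, against 0, 0, 0.751 and 0 CPM in supplemented 2N. Control-diet libraries had 0.533, 6.85 and 22.5 CPM in Ts65Dn, against 1.29, 5.45 and 10.5 CPM in 2N, with overlap. The supplemented difference passed in DESeq2 (adjusted p = 2.8e-06) and not in edgeR (adjusted p = 0.206), and the fitted log2 fold change of 5.93 ± 1.70 (SE) rests on counts near 0. Over both diets it was 3.32 ± 0.98 (adjusted p = 0.0808 in edgeR, 0.000144 in DESeq2). Supplemented 2N also lay below every control-diet 2N library for Sft2d1, the single tested member to separate in that comparison, where 0.741% of all genes separated in that direction (log2 difference −4.80 ± 1.62, SE, adjusted p = 0.566).

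Zdhhc14 attaches palmitate to proteins and so helps to place them in membranes. It had 6.04, 35.5 and 78.4 CPM in control-diet Ts65Dn, against 13.3, 21.3 and 59.3 CPM in 2N, and 6.59, 17.1 and 47.4 CPM in supplemented Ts65Dn, against 11.8, 23.1 and 62.1 CPM in 2N. The groups overlapped on both diets (log2 fold changes of 0.56 ± 0.57 and −0.31 ± 0.59, SE), and the supplemented value was 0.31 without 2N 3. Fgfr1op, a centrosomal protein needed for cilia, had 0, 16.7 and 30.5 CPM in control-diet Ts65Dn, against 20.5, 25.3 and 32.6 CPM in 2N, and 0, 8.74 and 22.1 CPM in supplemented Ts65Dn, against 12.8, 15.7 and 26.4 CPM in 2N. Its log2 fold changes were negative but not past the test (−0.63 ± 0.83 and −0.86 ± 0.85), and the control-diet value was −0.38 without Ts65Dn 3, which had no Fgfr1op count. Snx9, a sorting nexin of endocytosis, had log2 fold changes of 0.63 ± 0.97 and 0.82 ± 1.06.

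Prr18, a proline-rich protein that mouse brain data place in oligodendrocytes, had 7.63, 40.8 and 119 CPM in supplemented Ts65Dn, against 19.4, 28.2, 7.79 and 31.3 CPM in supplemented 2N. On the control diet it had 19.1, 40.5 and 96.6 CPM in Ts65Dn, against 25.3, 39.7 and 59.2 CPM in 2N. Its log2 fold change was 1.30 ± 0.53 on the supplemented diet and 0.29 ± 0.47 on the control diet (SE, adjusted p = 0.428 and 0.937). The 8 oligodendrocyte markers summed to 2708, 3314 and 3963 CPM in supplemented Ts65Dn and 2430, 2829 and 3299 CPM in supplemented 2N, and to 728, 2752 and 3996 CPM in control-diet Ts65Dn and 2919, 3520 and 3879 CPM in control-diet 2N. Their part in the Prr18 values was not tested.

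Of the 5 tested genes of metabolism and RNA turnover, 2 had a positive log2 fold change on the control diet (Serac1 and Tmem242) and 3 on the supplemented diet (Mpc1 as well), while Rnaset2a and Rnaset2b were negative on both. Between supplemented and control-diet Ts65Dn all 5 were positive (median log2 difference 0.92, where all tested genes had 0.04). Between supplemented and control-diet 2N, 4 of the 5 were positive (median 0.63, where all tested genes had −0.06). None passed the test in edgeR in either genotype, and the 5 include the copies Rnaset2a and Rnaset2b, whose single values are uncertain. The other lists with at least 5 tested genes differed in these diet comparisons. Genes of chromatin and transcription were positive for 1 of 5 in Ts65Dn and 0 of 5 in 2N (medians −0.18 and −0.45). Signalling genes were positive for 1 of 5 and 2 of 5 (−0.29 and −0.36). The list of membranes, vesicles and the cytoskeleton was positive for 7 of 13 and 2 of 13 (0.18 and −0.29). Mpc1 is a subunit of the carrier that brings pyruvate into mitochondria, and stood high per length (51.6 TPM on average). It had 4, 11.8 and 41.8 CPM in control-diet Ts65Dn, against 5.62, 22.8 and 35.5 CPM in 2N, and 0, 28.4 and 72.1 CPM in supplemented Ts65Dn, against 20.7, 22.5 and 42.9 CPM in 2N. The supplemented Ts65Dn libraries reached both below and above the 2N range, and the log2 fold changes were −0.34 ± 0.73 and 0.05 ± 0.78 (SE). Serac1, which shapes phosphatidylglycerol where mitochondria meet the endoplasmic reticulum, overlaps Synj2 on the opposite strand. It had 10.2, 25.6 and 59.2 CPM in control-diet Ts65Dn, against 1.87, 17.1 and 43.5 CPM in 2N, and 10.9, 24.5 and 109 CPM in supplemented Ts65Dn, against 13.0, 18.1 and 24.0 CPM in 2N. Its log2 fold changes were 0.42 ± 0.61 and 1.06 ± 0.68, and those of Tmem242, a mitochondrial membrane protein, 0.21 ± 1.19 and 1.26 ± 1.33. None of the 3 passed on either diet (lowest adjusted p = 0.774, for Serac1 on the supplemented diet, edgeR's quasi-likelihood test).

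For the near-identical copies the sums are given, because the values of single copies are uncertain. In control-diet Ts65Dn the 4 Dynlt1 genes together had 42.7 ± 22.9 CPM (SD, n = 6), against 30.4 ± 14.9 CPM in 2N (n = 6), a log2 fold change of 0.49 ± 0.47 (SE, adjusted p = 0.851). In supplemented Ts65Dn they had 53 ± 21.4 CPM (n = 8; 35.7 to 99.5), against 18.7 ± 10.9 CPM in 2N (n = 4; 5.2 to 29.7). The supplemented groups did not overlap in this sum, where 0.195% of all tested genes separated in that direction. The log2 fold change of 1.5 ± 0.53 did not pass over all genes (SE, adjusted p = 0.37, edgeR). The authors' counting gave the reads to different copies in different libraries: supplemented Ts65Dn 1 had 59.7 CPM on Dynlt1a and 0 on Dynlt1f, whereas supplemented Ts65Dn 3 had 0.343 CPM on Dynlt1a and 57.6 CPM on Dynlt1f. Most windows of both copies also occur in another gene (63.0% for Dynlt1a and 88.6% for Dynlt1f). From the deposited counts alone, such a shift cannot be told apart from the way shared reads were divided.

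**Figure D4:**
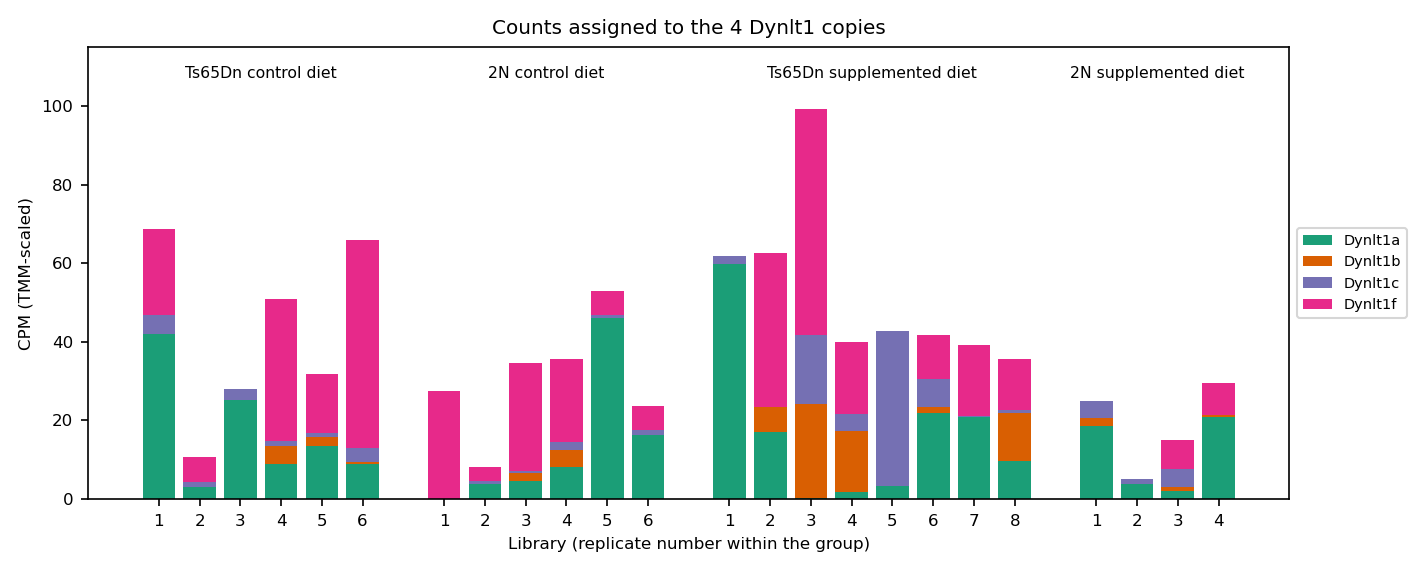
CPM (TMM-scaled) assigned to the 4 Dynlt1 copies, stacked, with 1 bar per library and the groups side by side. The height of the bar is the family sum, which runs from 35.7 to 99.5 CPM in supplemented Ts65Dn and from 5.2 to 29.7 CPM in supplemented 2N, while the colour that leads changes from library to library.

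The sums of the other families overlapped between genotypes on both diets. Rnaset2a and Rnaset2b together had 4.65 ± 4.69 CPM in Ts65Dn and 7.78 ± 6.03 CPM in 2N on the control diet, and 10.1 ± 6.29 CPM in Ts65Dn and 13.8 ± 8.67 CPM in 2N on the supplemented diet. Rnaset2a alone was at 0 in all 6 control-diet Ts65Dn libraries, against 1.40 and 6.04 CPM in control-diet 2N 4 and 6 and 0 in the other 2N libraries. Among the supplemented libraries it had 8.80 and 1.2 CPM in Ts65Dn 2 and 5 and 0 in the other Ts65Dn libraries, against 2.60 and 12.1 CPM in 2N 2 and 4 and 0 in 2N 1 and 3. Rsph3a and Rsph3b, parts of the radial spoke of motile cilia, summed to 20.5 ± 11.4 CPM in Ts65Dn and 23 ± 6.23 CPM in 2N on the control diet, and to 20.5 ± 17.6 CPM in Ts65Dn and 8.06 ± 6.48 CPM in 2N on the supplemented diet. Rsph3a alone had 0, 9.49 and 16.4 CPM in control-diet Ts65Dn, against 5.79, 19.5 and 35.1 CPM in 2N, and 0, 12.1 and 58.9 CPM in supplemented Ts65Dn, against 1.94, 4.07 and 9.79 CPM in 2N. Neither family passed on either diet (adjusted p between 0.638 and 0.995, edgeR). The unnamed gene models Gm49721 and Gm49673 share 88.5% and 92.5% of their windows with other genes, and both had 8.64 CPM in control-diet Ts65Dn 2 and 6.68 CPM in control-diet 2N 1. In supplemented 2N, Gm49673 was at 0 in all 4 libraries and Gm49721 had 6.45 CPM in 1 of them.

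The 11 members that were not tested held between 0 and 116 counts over all 24 libraries. They were Cldn20, Nox3, Ldhal6b, Sytl3, Tcp10a, Ttll2, Gm49630, Unc93a2, Ccr6, T2 and T. Among them are a claudin of tight junctions (Cldn20), an oxidase of the inner ear (Nox3), a chemokine receptor of immune cells (Ccr6) and the embryonic transcription factor brachyury (T). Ttll2 had no count in any library, and none of the 11 had a count in more than 8 libraries.

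The diets were compared within each genotype to see whether maternal choline moved the segment. Between supplemented and control-diet Ts65Dn, edgeR called 0 of 34 members, where it called 0.13% of all genes, with 2 members higher (Rnaset2a and Gm17728) and 1 lower at an unadjusted p under 0.05 (5.38% and 4.24% of all genes), and DESeq2 called 0 members and 1.69% of its genes. The member that was lower was Pde10a (log2 difference −0.76 ± 0.33, SE, adjusted p = 0.385, edgeR). Rnaset2a and Gm17728 were at 0 in all 6 control-diet Ts65Dn libraries and in 6 and 7 of the 8 supplemented ones, so their difference rests on few libraries. Between supplemented and control-diet 2N, edgeR called 0 of 34, where it called 0.00501% of all genes, with 0 higher and 2 lower (Sft2d1 and Gm49673) at an unadjusted p under 0.05 (1.86% and 5.06% of all genes), and DESeq2 called 1, Sft2d1, and 1.04% of its genes. Summed over all members, supplemented 2N had 1053 ± 126 CPM and control-diet 2N 1278 ± 162 CPM (SD, n = 4 and 6), while the sums of supplemented and control-diet Ts65Dn were 1584 ± 113 and 1640 ± 56.1 CPM (n = 8 and 6). The diets overlapped in both genotypes (871 to 1158 and 1036 to 1482 CPM in 2N, 1439 to 1754 and 1561 to 1716 CPM in Ts65Dn). The difference between the diets in the genotype effect was tested gene by gene. The interaction called 0 of 34 members in edgeR, where it called 0.00501% of all genes, with 3 higher (Tulp4, Sft2d1 and Rsph3a) and 0 lower at an unadjusted p under 0.05 (5.78% and 2.65% of all genes) and 1, Sft2d1, in DESeq2, which called 1.65% of its genes.

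The values inside the segment's end were set beside those of its neighbours outside. Genes were kept here at a mean of at least 10 CPM of the plain total over all libraries. The 19 members kept had a median log2 fold change of 0.42 (control diet) and 0.64 (supplemented diet), with 14 and 15 positive. Ts65Dn libraries outnumber 2N ones in that mean, so a member high in Ts65Dn passes more easily. Snx9, positive on both diets, averaged 11.5 and 13 CPM in Ts65Dn (control and supplemented diet), against 7.39 and 7.36 CPM in 2N. The 19 nearest genes beyond the end with such a mean, which start 775 to 6278 kb past it, had medians of −0.13 and −0.17, with 7 and 6 positive. The last tested members inside the end were Gm17087 (0.32 ± 1.29 and 0.74 ± 1.41, SE), 1700010I14Rik (1.78 ± 1.64 and −0.66 ± 1.66) and Gm17728. These values moved with single libraries: for 1700010I14Rik the control-diet value was 3.47 without 2N 3 and 0.98 without Ts65Dn 5, and the supplemented value 0.55 without 2N 3 and −1.50 without Ts65Dn 8. For Gm17087 the control-diet value was −0.64 without Ts65Dn 5, and the supplemented value was 0.06 without Ts65Dn 8 and 2.27 without 2N 4. Gm17728 had 3.28 CPM in 1 supplemented Ts65Dn library and 0 in the rest, against 4.27 and 16.0 CPM in supplemented 2N 2 and 3, and 0 in all control-diet Ts65Dn libraries, against 1.73 CPM in 1 control-diet 2N library. The first tested protein-coding gene outside was Qk. This RNA-binding protein of myelinating and other glia fell to 111, 161 and 176 CPM in control-diet Ts65Dn, against 255, 326 and 520 CPM in control-diet 2N, with no overlap (−1.14 ± 0.23, adjusted p = 0.0111), and had 160, 219 and 316 CPM in supplemented Ts65Dn, against 220, 246 and 271 CPM in supplemented 2N (−0.07 ± 0.24). Tiam2 and Synj2, which lie on the segment but were left out by the rule, had log2 fold changes of 1.80 ± 0.86 and 0.10 ± 0.89 and of 0.69 ± 0.33 and 0.24 ± 0.35, and none of these passed (lowest adjusted p = 0.42).

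**Figure D5:**
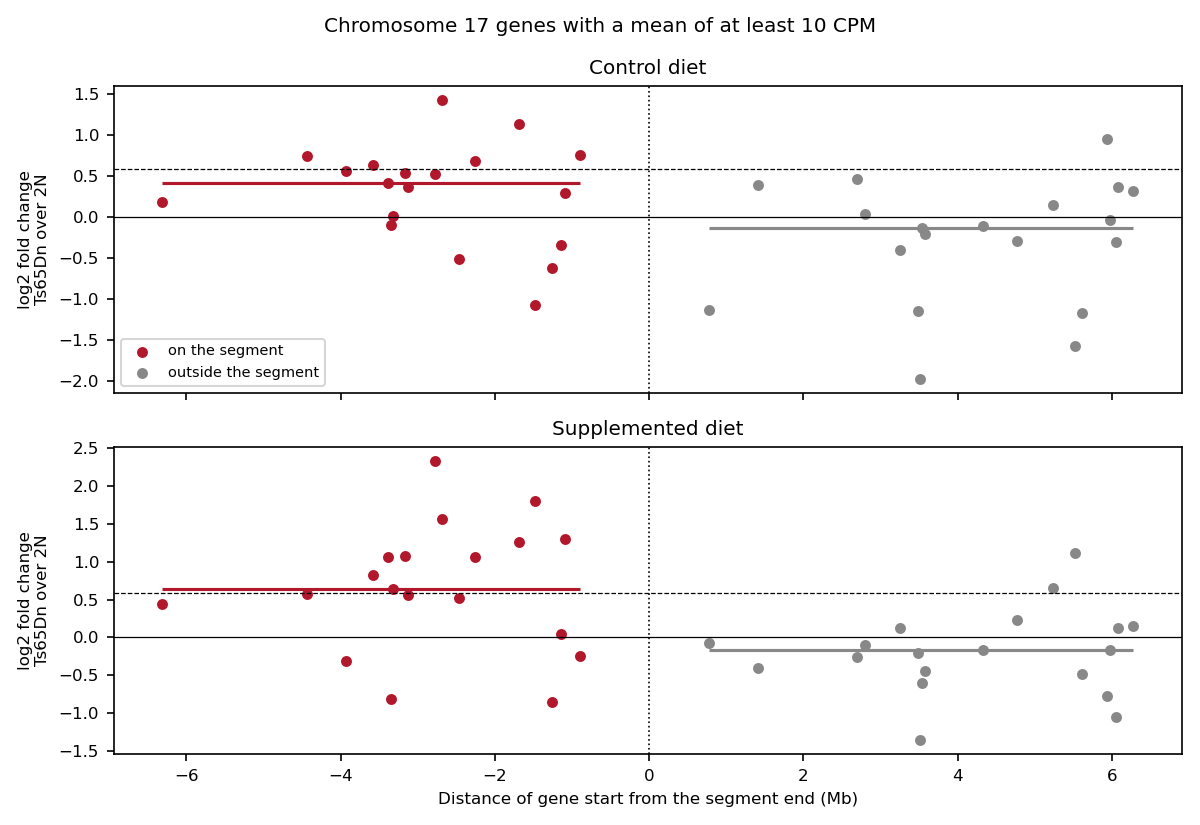
The log2 fold change of Ts65Dn over 2N against the distance of each gene's start from the end of the segment, for the 19 members and the 19 nearest genes outside with a mean of at least 10 CPM, on the control diet (top) and the supplemented diet (bottom). That mean is over all libraries, in CPM of the plain total. Horizontal bars mark the medians, 0.42 and −0.13 on the control diet and 0.64 and −0.17 on the supplemented diet, and the dashed line marks 0.58.

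Genes that work with the members but lie elsewhere were read from lists of complex and pathway partners. Over the 77 tested partners, edgeR called 0 on the control diet, where it called 0.336% of all genes, with 3 higher and 7 lower at an unadjusted p under 0.05 (5.36% and 5.55% of all genes). For the supplemented diet it called 0, where it called 0.18% of all genes, with 1 higher and 2 lower at an unadjusted p under 0.05 (6.99% and 2.49% of all genes). DESeq2 called 1 on the control diet, the dynein light chain Dynll2 (lower), where it called 2.28% of its genes, and 0 on the supplemented diet, where it called 2.6%. The 24 other subunits of the BAF complex had medians of 0.12 and 0.01, where Arid1b stood at 0.74 and 0.57; the BAF gene with the smallest p on the control diet was Dpf2 (−1.54 ± 0.69, SE, adjusted p = 0.373). The 9 partners of Gtf2h5 in TFIIH had medians of −0.63 and 0.16, with Gtf2h2 at 2.67 ± 1.35 (adjusted p = 0.471), and the 9 other subunits of cytoplasmic dynein −0.38 and −0.23, with Dynll2 at −0.68 ± 0.23 on the control diet (adjusted p = 0.201). The 9 genes of pyruvate use and mitochondrial transcription had medians of −0.34 and −0.58, with Dld, a subunit of the pyruvate dehydrogenase complex, at −1.52 ± 0.54 on the control diet (adjusted p = 0.215). The 8 other genes of the ERK and S6 kinase list had medians of −0.34 and 0.02, with the ERK kinase Map2k1 at 0.90 ± 0.38 (adjusted p = 0.327). The 18 other phosphodiesterases had medians of 0.28 and −0.08, with Pde2a at 1.13 ± 0.39 (adjusted p = 0.201).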

How the data were processed

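RNA of laser-captured neurons was sequenced as single reads of 50 bases from a stranded total RNA kit, per the labels' protocols. Trimmomatic 0.39, STAR and RSEM are listed in the submitters' processing notes, which also name GRCm39 and mm10 without saying which was used for what; no version of the others is given in the sources used here. The authors deposited a matrix of expected counts per gene (6.53% of values not whole) and TPM per sample. The expected counts were rounded, given TMM factors and fitted in edgeR 4.0.16 (quasi-likelihood test, R 4.3.3) in 1 fit of all 24 libraries with a term per group, after filterByExpr with a minimum count of 10; p-values were adjusted over all tested genes by the Benjamini-Hochberg method, with a threshold of 0.05. SE is the log2 fold change divided by the root of F. DESeq2 1.42.0 and limma 3.58.1 on log2(TPM + 1) were alternatives; limma took the deposited TPM. The code was run on simulated counts whose spread between libraries was set below that of these data (a fitted common coefficient of variation of 1.4). That run does not show how well a 1.5-fold change is found here. Of the 55414 identifiers, 52081 matched GENCODE M21 (GRCm38), which gave positions, overlaps, coding sequences and the 50-base windows. CPM in the text are TMM-scaled unless the plain total is named. A stranded kit was used, but whether counting used strand is not stated in the sources used here, so overlapping genes on opposite strands are uncertain.

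Described with values are the 14 tested members with the highest mean CPM, every member called, the 3 with the smallest p in each direction per genotype contrast, the 2 with the smallest p per diet contrast and interaction, and the 3 tested protein-coding genes nearest to the segment's end on each side, of which some outside it are not reported here. Partner lists are given by counts, median and the gene with the smallest p on the control diet. Members, lists and rules were chosen with earlier results of these data known; families were summed with Tagap and Tagap1 added after the shared windows were seen. Alternatives were another library scaling, no count filter, fits of 2 groups, the ID prefix as a factor or within 1 prefix, other sets of members, and libraries left out.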

Additional observations from a re-analysis of the deposited data

Results flagged for a closer look

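Within each group, the highest and lowest library of the 14 most abundant members, and of the segment level, were examined for a gap from the others, and 7 of 60 groups had a library beyond the limit, which chance alone exceeds in about 1 of 20 groups. The values that follow are log2 CPM. Tagap1 stood apart at −2.25 and Fgfr1op at −2.25 in control-diet Ts65Dn 3, where both had no count and where few genes were detected. Tulp4 was low, at 8.06, in supplemented Ts65Dn 7, the other library with few detected genes. Pde10a was low, at 4.24, in supplemented Ts65Dn 1. Tmem181a was high, at 6.33, in supplemented 2N 3. Mpc1 was low, at 2.54, in control-diet 2N 5 and high, at 5.43, in supplemented 2N 1.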

How the results depend on the processing

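Called members over both diets numbered 1 in the fit reported (0.982% of all tested genes were called there), 3 with DESeq2 size factors (1.22%), 5 with DESeq2's Wald test (4.38%), 0 with limma on log2(TPM + 1) (1.17%), 0 without both libraries with few detected genes (0.53%), 0 without the 4 libraries with Xist counts (0.764%), 5 without supplemented Ts65Dn 2 and 5 (2.25%; an alternative added after seeing the data) and between 0 and 4 when 1 library was left out (0.507% to 1.65%). Of the 5 called without supplemented Ts65Dn 2 and 5, Rnaset2a was lower in Ts65Dn. The cause of the differences between these counts of called members was not tested. DESeq2's Wald test called 1 member on the control diet, 4 on the supplemented diet, 1 for the interaction and 1 for diet in 2N, where edgeR called 0 in each, with 0 in every edgeR fit without 1 library. On log2(TPM + 1) the median on the supplemented diet was −0.20 and the mean log2 level of the tested members −0.13 (Ts65Dn minus 2N). The summed ratio on the supplemented diet was 1.25 in CPM of the plain total, and in TPM it was 0.93 and 0.86 on the control and supplemented diets. With 1 library left out, the medians ran between 0.28 and 0.54 on the control diet and between 0.48 and 0.64 on the supplemented diet, the difference in mean log2 level (0.15 and 0.37 with all libraries) between 0.02 and 0.39 and between 0.29 and 0.47, and the summed ratio between 1.24 and 1.33 and between 1.42 and 1.56. Of the 23 tested members described by rule, 15 (control diet) and 13 (supplemented diet) had a log2 fold change, none past the test in edgeR, that moved by over 1.5 times or changed sign when 1 library was left out. The sign changed for Gm17087, Gm49721, Prr18, Tagap and Tulp4 on the control diet and for 1700010I14Rik, Gm49721, Mpc1, Pde10a, Rnaset2a and Zdhhc14 on the supplemented diet. No paired analysis was possible because the labels give the groups no shared replicate numbers.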
